A study of Mus musculus with 6 samples.

Results

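The 10 genes described here are 4 cadherin genes (*Cdh1*, *Cdh2*, *Cdh3* and *Cdh11*), the vimentin gene *Vim*, and 5 transcription factor genes (*Snai1*, *Snai2*, *Zeb1*, *Zeb2* and *Twist1*) that are known for driving epithelial-mesenchymal transition. They were taken by gene symbol from the 20405 genes of an expression array, and all 10 were found. Each was read by its brightest probe set, taken by the mean of the 6 arrays. Total RNA came from early passage M0505 cells, an ovarian surface epithelial (OSE) line of FVB/N mice, and from STOSE cells, the spontaneously transformed line that arose from M0505 during long passage. No transgene or treatment is named for either line, both were grown in the same medium with EGF and fetal calf serum, and the RNA of each line was measured on 3 Mouse Gene 1.0 ST arrays (Affymetrix). STOSE is 1 line derived from 1 parental line, so the 3 arrays of a line describe the spread between samples of a line and not between independent transformations. The labels call the arrays biological replicates without saying that they came from separate cultures, so p-values measure only the spread between these samples, which may be technical.

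Cadherins are calcium-dependent adhesion proteins that bind the same cadherin on the neighbouring cell and, through catenins, hold the actin cytoskeleton at adherens junctions. Most epithelia carry E-cadherin, encoded by *Cdh1*. The OSE is a mesothelium that normally carries N-cadherin, encoded by *Cdh2*, and also keratins, vimentin and other mesenchymal proteins. In epithelial-mesenchymal transition, factors of the Snail, Zeb and Twist families bind E-box sequences, repress *Cdh1* and other epithelial genes, and cells take on vimentin, N-cadherin and a spindle shape. The comparison asked how far the genes of this switch differed between the parental line and its transformed descendant.

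The labelled tissue was checked against 13 markers of OSE and mesothelium. Of these, 12 had a mean above background in at least 1 line. Background is the 95th percentile (4.74 on the log2 scale) of the 1134 probe sets of olfactory receptor genes, which are taken to be silent in these cells. *Upk3b*, an uroplakin gene and the brightest of the markers, was at 12.25 in M0505 cells and 11.91 in STOSE cells. *Wt1*, the Wilms tumor transcription factor, was at 11.39 and 10.76, and *Msln*, the mesothelin gene, at 11.13 and 10.53. *Lhx9* was at background in both lines. At a limma adjusted p under 0.05, 11 of the 13 were lower in STOSE cells and 0 higher. Over all genes 56.5% passed it in either direction. The widest falls were those of *Krt19*, from 11.17 to 5.61, and *Krt8*, from 11.37 to 6.82.

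Of the 10 members, each read by its brightest probe set, 1 was called higher in STOSE cells, 0 were called lower and 9 were not called. The other probe set of *Cdh11*, described below, was called lower (4.24-fold). A call required an adjusted p under 0.05 from limma, with Benjamini-Hochberg adjustment over all 20405 genes, and a difference of at least 2-fold. By this rule 12.5% of all genes were called, 4.90% higher and 7.59% lower. At the adjusted p alone, 6 members passed, 3 higher and 3 lower, against 56.5% of all genes. With an unadjusted p under 0.05 there were 6 higher and 3 lower. The share of all genes past the unadjusted p is not given here. Counts at it, for the members and for the lists below, therefore do not show whether they are unusual. The methods' t-test with the fold rule also called 1 member. The STOSE arrays did not overlap the M0505 arrays for 8 members, and 64.6% of all genes were separated in this way. The median size of the members' log2 fold changes was 0.27, beside 0.25 for all genes. The members' share past the adjusted p lay near that of all genes. The median log2 fold change was 0.16 for the members and 0.08 for all genes. The median of the gene values was 6.46 to 6.49 on the M0505 arrays and 6.25 to 6.29 on the STOSE arrays. With each array centred on its median the median log2 fold change of all genes became 0.28, and the calls over all genes moved from 1000 higher and 1548 lower to 1466 higher and 1177 lower. The same centring left *Snai1* as the single member called, but brought *Cdh1* (0.23), *Cdh2* (0.38), *Vim* (0.33) and *Zeb2* (0.40) past the adjusted p and *Cdh11* (-0.11) out of it, so that differences of this size depend on the scaling. Since every value comes from a whole culture, fewer cells that carry an RNA and less of it per cell cannot be told apart.

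**Figure D1:**
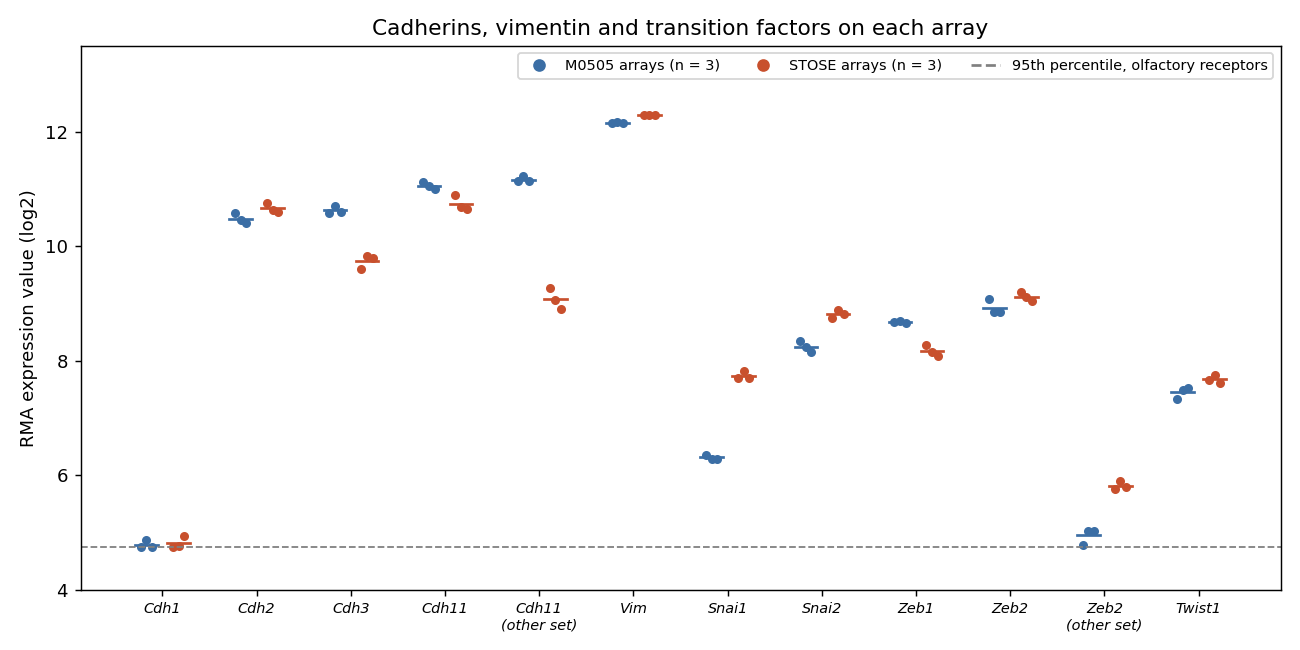
RMA expression value (log2) of the 10 genes on each array, with blue points for the 3 M0505 arrays, red points for the 3 STOSE arrays, short lines for the means and a dashed line for the olfactory receptor 95th percentile of 4.74; "other set" is the further probe set of *Cdh11* and of *Zeb2*. *Cdh1* sits on the background line in both lines, and *Snai1* and the other probe set of *Cdh11* show the widest gaps.

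*Cdh1* RNA was at the edge of background in both lines. The M0505 arrays gave log2 values of 4.75, 4.86 and 4.75, and the STOSE arrays gave 4.75, 4.76 and 4.94. The groups overlapped. The means of 4.79 ± 0.06 (SD, n = 3) and 4.82 ± 0.10 (SD, n = 3) lay just above the background of 4.74 and under a stricter background, the olfactory receptor 99th percentile (5.52). The log2 fold change of STOSE over M0505 was 0.03, with a 95% interval of -0.13 to 0.20 (limma adjusted p = 0.735). It turned to -0.03 after a further quantile normalization. At this level a fall of *Cdh1* in STOSE cells could not have been detected.

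*Cdh2*, the N-cadherin gene, was bright in both lines. It had values of 10.58, 10.46 and 10.40 on the M0505 arrays and of 10.76, 10.64 and 10.60 on the STOSE arrays. The STOSE arrays lay just above the M0505 arrays, with a gap much smaller than the spread within a line. Its log2 fold change was 0.18 (95% interval 0.02 to 0.35, limma adjusted p = 0.0588). The whole interval lay under 2-fold. *Cdh2* passed the adjusted p with the dim genes left out (0.0488 and 0.0398 without the dimmest 25% and 50%), with an intensity trend in limma (0.0222) and without M0505 replicate 1 (0.0292).

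*Cdh3* encodes P-cadherin, a classical cadherin of basal epithelia and mesothelium, and was lower in STOSE cells by just under 2-fold. The M0505 arrays stood at 10.59, 10.71 and 10.59 and the STOSE arrays at 9.60, 9.83 and 9.80, with no overlap. The log2 fold change was -0.89 (standard error 0.08, limma adjusted p = 2.37e-05), which is 1.85-fold and outside the 2-fold rule. Leaving out single arrays gave values from -0.93 to -0.81. *Cdh3* and *Cdh1* lie next to each other on chromosome 8 in the RefSeq annotation of GRCm38.p6, with 0 protein-coding genes starting between them, and the deposited table names no build. Only the first of the pair was clearly detected.

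*Cdh11* encodes a mesenchymal cadherin found in stroma and bone-forming cells, and its 2 probe sets gave different answers. The probe set with the highest mean had values of 11.12, 11.05 and 11.01 in M0505 cells and of 10.90, 10.68 and 10.65 in STOSE cells. Here the groups were close but did not overlap, and the log2 fold change was -0.31 (standard error 0.08, limma adjusted p = 0.00999), or -0.11 (adjusted p = 0.184) with each array centred on its median. The other probe set had values of 11.14, 11.22 and 11.13 in M0505 cells and of 9.27, 9.07 and 8.91 in STOSE cells. By this one *Cdh11* fell by 2.08 on the log2 scale (standard error 0.09, limma adjusted p = 1.17e-06 over all probe sets), which is 4.24-fold and past the rule for a call.

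The probe set IDs of this array follow the genome, since 90.6% of neighbouring IDs with a placed gene were on the same chromosome. For the other probe set of *Cdh11*, 9 of the 10 nearest placed probe sets were on chromosome 8, where RefSeq has *Cdh11*. For the probe set with the highest mean, 0 of 10 were on chromosome 8 and 9 were on chromosome 18. It was the only 1 of 192 probe sets of the genes considered here with fewer than 6 of 10 neighbours on its gene's chromosome. What the probes of this set read was not tested, because their sequences were not used here, and both values of *Cdh11* are therefore given.

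**Figure D2:**
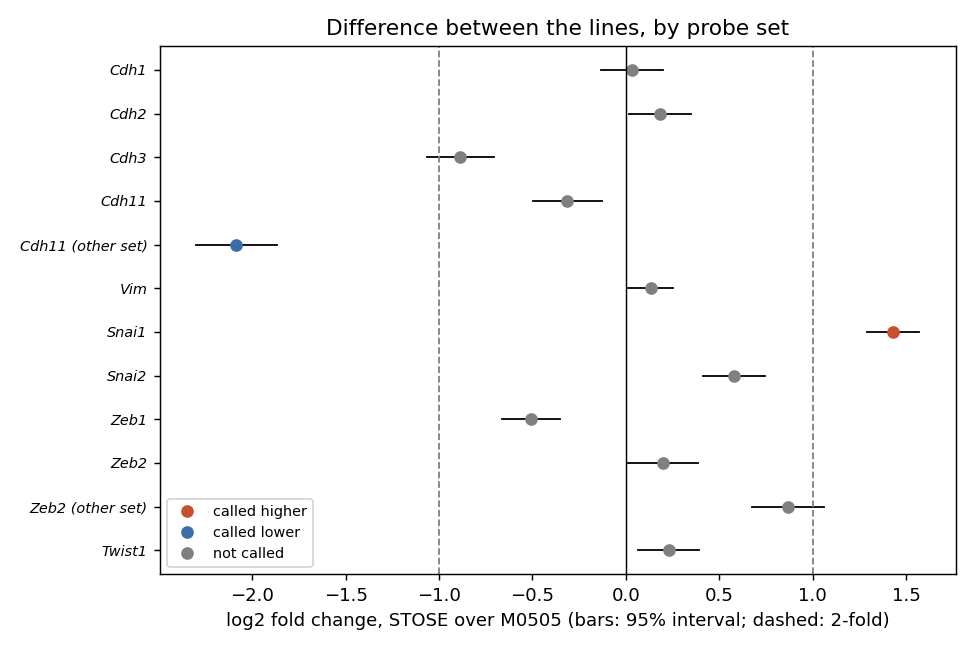
Log2 fold change of STOSE over M0505 cells for each probe set of the 10 genes (points) with its 95% interval from limma (bars); dashed lines mark 2-fold, and colours show calls at an adjusted p under 0.05 with at least 2-fold. *Snai1* lies above the upper line at 1.43, the other probe set of *Cdh11* lies under the lower line at -2.08, and the remaining points lie between the lines.

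*Vim* encodes vimentin, the intermediate filament protein of mesenchymal cells and of mesothelium. It had some of the highest values of the table in both lines, 12.15, 12.18 and 12.16 in M0505 cells and 12.29, 12.29 and 12.29 in STOSE cells. The STOSE arrays lay above the M0505 arrays, but by a log2 fold change of only 0.13 (95% interval 0.01 to 0.25, limma adjusted p = 0.0609), and a further quantile normalization turned this to -0.01. At its size of 0.13, *Vim* passed the adjusted p with an intensity trend in limma (0.00125), in the methods' t-test (0.00111) and with the dim genes left out (0.0442 and 0.0271). The highest *Vim* value was 0.51 below the highest value of any probe set (12.81). Whether the probes were near saturation was not tested.

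*Snai1*, which encodes Snail, the founding member of its family of zinc finger repressors, was the single member called. It had log2 values of 6.36, 6.29 and 6.29 on the M0505 arrays and of 7.70, 7.82 and 7.70 on the STOSE arrays. No arrays of the lines overlapped, and the gap was many times the spread within a line. *Snai1* rose by a log2 fold change of 1.43 (standard error 0.06, limma adjusted p = 3.85e-07), which is 2.70-fold, and the change lay between 1.39 and 1.45 when single arrays were left out. By size it ranked 427 among the 1000 genes called higher in STOSE cells.

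Because *Snai1* was the called member, the 250 bases before its start are shown, as RefSeq gives them on the plus strand of GRCm38.p6 at chr2:167537945-167538194, with the E-box CACCTG in capitals.

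Snai1: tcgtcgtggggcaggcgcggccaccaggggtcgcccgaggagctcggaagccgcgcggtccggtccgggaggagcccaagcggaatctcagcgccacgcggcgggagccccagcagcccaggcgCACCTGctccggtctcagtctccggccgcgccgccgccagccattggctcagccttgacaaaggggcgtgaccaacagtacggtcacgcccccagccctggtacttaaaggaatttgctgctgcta

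E-boxes of the letters CANNTG are the sites that Snail, Zeb and Twist factors recognise, and Snail and Zeb proteins prefer CACCTG, whose other strand reads CAGGTG. This window held 1 E-box, a CACCTG that begins 126 bases before the start. Of the 32851 windows of this length in the RefSeq table, which cover 27025 genes, 17.2% held CACCTG or CAGGTG, and 66.2% held CANNTG, which includes both. Windows were at hand for 4 members (*Snai1*, *Vim*, *Zeb2* and *Twist1*), and those of *Vim*, *Zeb2* and *Twist1* held no CANNTG. A match of letters is a description of the sequence and not a measurement of binding.

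*Snai2* encodes Slug, the close relative of Snail. Its values were 8.34, 8.24 and 8.15 in M0505 cells and 8.75, 8.89 and 8.81 in STOSE cells, with no overlap. The log2 fold change was 0.58 (standard error 0.07, limma adjusted p = 0.000176), a 1.49-fold difference that did not meet the fold rule. *Snai3*, the third gene of the family, was not among the members and lay near background, at 4.78 in M0505 cells and 4.66 in STOSE cells.

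The *Zeb* genes, which encode zinc finger and homeodomain repressors of *Cdh1*, pointed in different directions. *Zeb1* was at 8.68, 8.69 and 8.66 in M0505 cells and at 8.28, 8.15 and 8.08 in STOSE cells. All STOSE arrays lay below the M0505 arrays, with a log2 fold change of -0.51 (standard error 0.07, limma adjusted p = 0.000257), which is 1.42-fold. *Zeb2* was at 9.08, 8.85 and 8.84 in M0505 cells and at 9.21, 9.12 and 9.04 in STOSE cells. Its arrays overlapped, since M0505 replicate 1 was above STOSE replicate 3, and the log2 fold change was 0.20 (95% interval 0.01 to 0.39, adjusted p = 0.0702). It passed the adjusted p after a further quantile normalization (0.0374), with the mean of its probe sets (5.63e-05) and without M0505 replicate 1 (0.014). A dimmer *Zeb2* probe set had means of 4.95 and 5.82, a difference of 0.87 on the log2 scale, which is 1.83-fold and under the rule for a call. The direction of *Zeb1* and *Zeb2* kept its sign after centring and after a further quantile normalization.

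*Twist1*, a basic helix-loop-helix factor, had values of 7.34, 7.49 and 7.52 in M0505 cells and of 7.66, 7.75 and 7.62 in STOSE cells. The arrays were separated by a narrow gap, and the log2 fold change was 0.23 (standard error 0.07, limma adjusted p = 0.0252), or 1.17-fold. It missed the adjusted p in the methods' t-test (0.0602), without M0505 replicate 1 (0.0667) and without STOSE replicate 2 (0.0893). Among the 5 factors 1 was called, and the other four differed by 1.15-fold to 1.49-fold between the lines.

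The remaining 19 cadherin genes of the array were examined for any other cadherin that changed. In STOSE cells 0 of them were called higher and 0 lower by limma's adjusted p with the fold rule. At the adjusted p alone 5 were higher and 0 lower, beside the 56.5% of all genes past it. With an unadjusted p under 0.05 the counts were 5 and 1, and none of the 19 reached 2-fold. The median log2 fold change was 0.10. A mean above background in at least 1 line was found for 11 of the 19, and 8 were at background in both lines. The brightest was *Cdh18*, at 8.01 ± 0.08 (SD, n = 3) in M0505 cells and 8.54 ± 0.02 in STOSE cells, a log2 fold change of 0.53. Its other probe sets had means of 3.88 and 4.37, which are under background. *Cdh24* was at 7.15 and 6.92 by its brighter probe set and at 5.85 and 6.19 by the other, which differ in direction. *Cdh26* was under background in M0505 cells (4.42) and at 5.02 in STOSE cells. *Cdh4*, *Cdh22*, *Cdh23* and *Cdh15* had means between 5.31 and 5.74 in either line. The means of *Cdh5* (the vascular endothelial cadherin), *Cdh6*, *Cdh13* and *Cdh16* were between 4.80 and 5.06. Like *Cdh1*, the genes *Cdh5*, *Cdh6*, *Cdh13*, *Cdh15*, *Cdh16*, *Cdh23* and *Cdh26* lay under the stricter background of 5.52 in both lines.

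**Figure D3:**
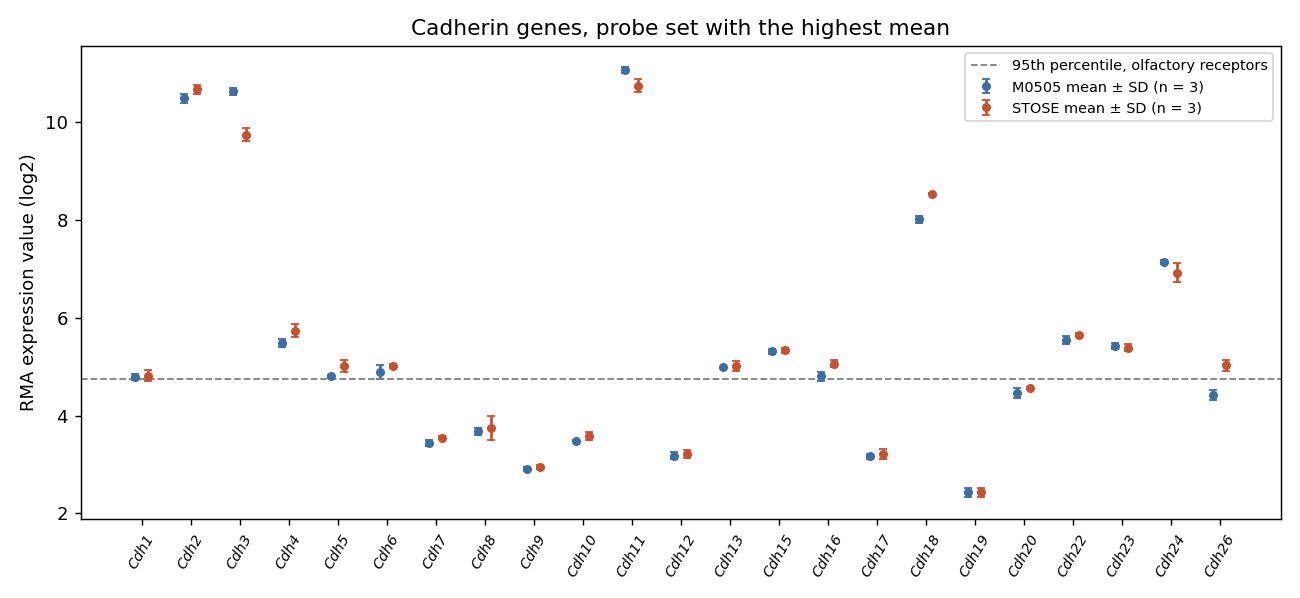
Mean RMA expression value (log2) of the 23 cadherin genes in M0505 cells (blue) and STOSE cells (red), with bars for the SD over 3 arrays and a dashed line for the olfactory receptor 95th percentile. *Cdh2* and *Cdh3* stand near or above 10, *Cdh1* is at 4.79 and 4.82, and *Cdh11* is drawn by its probe set with the highest mean (11.06 and 10.74), while its other probe set, not drawn, was at 11.17 and 9.08.

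Of 18 catenins and other partners of the adherens junction, 0 were called higher and 1 lower in STOSE cells, with a median log2 fold change of 0.11. At the adjusted p alone, as at an unadjusted p under 0.05, 6 were higher and 3 lower, beside the 56.5% of all genes past the adjusted p. *Ctnnb1*, which encodes β-catenin, was at 11.17 ± 0.02 (SD, n = 3) and 11.13 ± 0.02, and *Ctnnd1*, which encodes p120 catenin, was at 10.33 and 10.28. *Ctnna1*, the α-catenin gene, was at 10.19 and 10.47, and *Jup*, the plakoglobin gene, was at 11.10 and 11.21. The gene called lower was *Ptprm*, a receptor tyrosine phosphatase that associates with cadherins. It fell from 6.15 ± 0.38 to 4.88 ± 0.12, by 1.27 on the log2 scale (limma adjusted p = 0.000274), but did not pass limma's test against 2-fold (adjusted p = 0.75). *Nectin2*, listed under its older symbol *Pvrl2*, was lower by 0.85 on the log2 scale, under 2-fold, while *Nectin3* was higher by 0.56.

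Outside the members, the widest differences among transition factors were those of *Hmga2* and the *Id* genes. Of 16 further factors, 2 were called higher and 2 lower, beside 4.90% and 7.59% of all genes. The median log2 fold change of these factors was 0.05. *Hmga2* encodes a chromatin protein that is known to act upstream of *Snai1* and *Twist1*. Its mean rose from 6.11 ± 0.38 (SD, n = 3) to 10.25 ± 0.39, which is 17.6-fold (4.13 ± 0.23 on the log2 scale, with the standard error, and limma adjusted p = 1.52e-06). The Id proteins lack a DNA-binding region and hold E-proteins such as the product of *Tcf3* away from E-boxes. *Id3* fell from 8.35 to 5.61 (6.69-fold, adjusted p = 3.51e-06) and *Id1* fell from 10.12 to 8.91 (2.30-fold, adjusted p = 0.000802). *Id1* did not pass limma's test against 2-fold. *Id2* rose from 9.32 to 10.73 (2.65-fold, adjusted p = 3.15e-06). The E-protein genes were not called, with log2 fold changes of 0.08 for *Tcf3*, -0.25 for *Tcf4* and 0.11 for *Tcf12*. *Twist2* was higher by 0.86 and *Sox9* by 0.95 on the log2 scale, both under 2-fold, and *Prrx1*, *Foxc1*, *Foxc2* and *Klf8* lay at background in both lines.

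Of 12 factors known for maintaining epithelia, 5 were at background in both lines, among them *Grhl2*, *Esrp1* and *Elf3*. There was 1 called higher and 1 called lower, with a median log2 fold change of 0.17. At the adjusted p alone 5 were higher and 1 lower, beside the 56.5% of all genes past it. *Grhl1*, a grainyhead-like factor, fell from 6.86 ± 0.26 (SD, n = 3) to 4.96 ± 0.16, which is 3.74-fold (limma adjusted p = 5.88e-06). *Klf4*, a Krüppel-like factor, rose from 8.02 ± 0.26 to 9.17 ± 0.26, which is 2.22-fold (adjusted p = 0.000358), but did not pass limma's test against 2-fold. The microRNAs of the miR-200 family and miR-205, which target the *Zeb* mRNAs, had no row under the 6 symbols searched and were not analysed here.

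Among 26 epithelial readout genes, which include keratins, claudins and surface proteases with their inhibitors, 5 were called lower and 3 higher, with a median log2 fold change near 0 (-0.004). Among the keratins, *Krt19* fell from 11.17 to 5.61, a 47.2-fold difference (limma adjusted p = 1.14e-08, log2 standard error 0.12), and *Krt8* fell from 11.37 to 6.82, which is 23.5-fold (adjusted p = 4.98e-09). *Krt18*, the usual partner of *Krt8*, was lower by only 0.84 on the log2 scale, from 11.35 to 10.50. *Krt7* fell by 1.03, just past 2-fold, and did not pass limma's test against 2-fold. It was under 2-fold at -0.83 with centring, at -0.89 without STOSE replicate 1, at -0.98 without M0505 replicate 2 and at -0.997 without M0505 replicate 3. *Lsr*, the receptor that builds tricellular junctions, fell 13.7-fold, and *Spint2*, a protease inhibitor, fell 4.80-fold. In the other direction, *Cldn3*, a claudin of tight junctions, rose from 5.90 to 9.98, which is 17.0-fold (adjusted p = 4.15e-08), and *Spint1* rose 6.53-fold. *Cldn1* rose from under background (4.32) to 6.05, at least 2.48-fold against the background of 4.74. *Epcam* was near background in M0505 cells (5.35) and under it in STOSE cells (4.48).

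Of 26 mesenchymal readout genes, 7 were called higher and 4 lower, with a median log2 fold change of 0.22. *Ddr2*, a collagen receptor, rose from 4.45, which is under background, to 9.99, at least 38.0-fold when taken against the background of 4.74. *Tnc*, the tenascin C gene, rose 10.4-fold, and *S100a4* rose 5.13-fold. *Acta2*, the smooth muscle actin gene, rose from 9.24 to 11.57, which is 5.04-fold (limma adjusted p = 3.84e-06), and *Tagln* rose 2.88-fold. *Thy1* and *Mmp2* also rose. *Vcan*, which encodes the matrix proteoglycan versican, fell from 8.28 to under background (4.58), at least 11.7-fold against the background of 4.74, and *Col1a2* fell 5.48-fold, while *Col1a1* was higher by 0.95. *Cnn1* fell by 1.32 on the log2 scale. *Tagln*, *Mmp2* and *Cnn1* did not pass limma's test against 2-fold. *Fn1*, the fibronectin gene, was bright in both lines, at 11.77 and 12.15.

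While *Vim* differed by 1.10-fold, some genes of other intermediate filaments differed by more than 2-fold. Of 13, 4 were called higher and 0 lower (6 and 1 at an unadjusted p under 0.05). Over all genes 4.90% were called higher and 7.59% lower. The median log2 fold change of the 13 was 0.20. *Prph*, the peripherin gene, rose from 6.22 ± 0.46 (SD, n = 3) to 10.50 ± 0.05, which is 19.6-fold (limma adjusted p = 5.34e-07), and *Nes*, the nestin gene, rose from 5.66 ± 0.32 to 8.65 ± 0.12, which is 7.96-fold. *Lmna* and *Lmnb1*, which encode lamins of the nuclear envelope, rose 2.43-fold and 2.49-fold. *Des*, the desmin gene, was lower by 0.54 on the log2 scale.

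**Figure D4:**
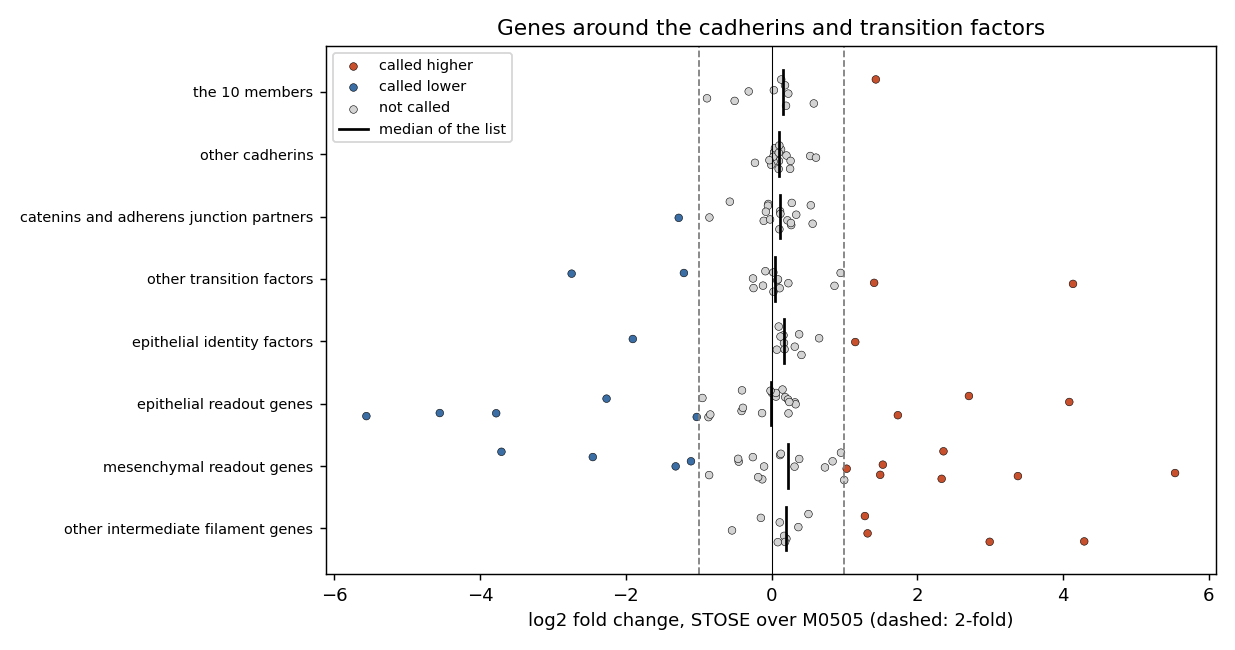
Log2 fold change of STOSE over M0505 cells for each gene (points) of the 10 members and of 7 surrounding lists, with a black bar at the median of each list, dashed lines at 2-fold, and red and blue for genes called higher and lower. The medians lie between -0.004 and 0.22, and the epithelial and mesenchymal readout lists hold genes called in both directions.

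Markers of other cell types were read beside these results. Over all genes 4.90% were called higher and 7.59% lower. Of 10 leukocyte markers 1 was called lower and 0 higher. It was *Cd68*, the brightest, which fell from 9.78 to 6.96, while the defining markers *Ptprc*, *Itgam* and *Csf1r* were under background in both lines. The log2 of the summed signal of that list was 9.83 to 10.19 on the M0505 arrays and 8.25 to 8.45 on the STOSE arrays. Of 10 endothelial markers 1 was called lower and 0 higher. It was *Kdr*, again the brightest, which fell from 9.58 to under background (4.41). A mean above background in at least 1 line was found for 7 of the 10. *Pecam1*, *Emcn* and *Erg* were under it in both lines, *Cdh5* was at 4.81 and 5.01, *Vwf* at 5.33 and 5.50, and *Cldn5* at 5.63 and 5.71. Their summed signal was 9.97 to 10.09 against 8.23 to 8.35. Such sums weigh bright genes most, and in M0505 cells the brightest of these lists were *Cd68* and *Kdr*. The median log2 fold changes of the leukocyte and endothelial lists were 0.06 and 0.10.

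Of 10 granulosa cell markers 3 were called lower and 0 higher, again beside 7.59% and 4.90% of all genes. *Amhr2*, the brightest of these markers, fell from 11.63 to 6.61, *Inha* from 9.61 to 5.68 and *Nr5a1* from 7.97 to 5.39. The authors place *Amhr2* expression in ovarian epithelium and fimbria too, so it does not mark granulosa cells alone. The defining markers *Fshr* and *Cyp19a1* were under background in both lines, and *Foxl2* was at 6.76 and 6.39. The summed signal was 12.13 to 12.31 against 9.29 to 9.34. Of 10 smooth muscle and pericyte markers 1 was called higher (*Acta2*, the brightest) and 1 lower (*Cnn1*), and 8 of the 10 were above background in at least 1 line. *Smtn* was at 9.54 and 9.73, *Mylk* at 6.46 and 6.52, and *Myh11* at 5.07 and 5.12, while *Rgs5* and *Pdgfrb* were under background in both lines. Their summed signal was 10.69 to 10.88 against 11.89 to 12.15, with *Acta2* the brightest gene in STOSE cells. The median log2 fold change of that list was 0.125. Of the 13 OSE and mesothelial markers 4 were called lower and 0 higher, namely *Krt7*, *Krt8*, *Krt19* and *Gata4*, and the median was -0.61. The summed signal was 15.04 to 15.12 against 14.34 to 14.43. By limma at an unadjusted p under 0.05, the numbers higher and lower were 1 and 2 of the leukocyte, 3 and 2 of the endothelial, 2 and 6 of the granulosa, 5 and 2 of the smooth muscle and pericyte, and 0 and 11 of the OSE and mesothelial markers. The part of these lists in the values of the cadherins and transition factors was not tested.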

How the data were processed

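Total RNA of 3 M0505 and 3 STOSE samples was hybridized to Affymetrix Mouse Gene 1.0 ST arrays. The deposited values are on the log2 scale and were made by the authors with robust multi-array averaging (RMA: background correction, quantile normalization and probe set summary) in Affymetrix Expression Console, per the labels. Quantile normalization gives every array nearly the same distribution over all probe sets (medians 5.64 to 5.68), which can hide a shift common to most of them. The software version, annotation release and genome build are not given in the sources used here. The table also holds the authors' line averages and fold changes, which were not used. Arrays carry no read depth, and the number of arrays limits the precision.

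Of 28944 probe sets, 5414 without a symbol were left out of the gene table. Each of 20405 genes was read by its brightest probe set, taken by the mean of the 6 arrays. STOSE was compared with M0505 by limma 3.58.1 in R 4.3.3 (lmFit and eBayes) on all genes, with Benjamini-Hochberg adjustment over all of them, and the fit was tested on simulated data. A call required an adjusted p under 0.05 and at least 2-fold. Standard errors are those of the fit. With 3 arrays against 3, an exact two-sided permutation test cannot go below p = 0.1, so none is given. Members and lists were chosen with earlier results of these data known, and lists are described by counts and medians. Named were all members, up to 6 called genes in each direction of a list, other cadherins above background, the brightest gene of a list without calls, and the brightest and defining markers of each cell type; *Mmp2* and the genes named as under 2-fold in other lists were chosen after their values were seen. Some genes counted in the lists are not reported here by name. Background was the 95th percentile of olfactory receptor probe sets. Chromosomes and sequences are from RefSeq, GRCm38.p6. *Cdh1*, *Cdh2*, *Cdh3*, *Cdh11*, *Snai2* and *Zeb1* had no promoter window in the RefSeq table. *Muc16* and 6 microRNA genes had no row under the symbols searched. Alternatives were further quantile normalization, centring, filters on dim genes, other uses of probe sets, the methods' t-test, limma with a trend or against 2-fold, other fold thresholds, a replicate block, and each array left out.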

Additional observations from a re-analysis of the deposited data

How the results depend on the processing

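The call of *Snai1* was the single one among the 10 members with either normalization, both filters on dim genes, the methods' t-test, limma with a trend and each array left out. The number of members called became 2 with the mean of a gene's probe sets, with every probe set on its own, with *Cdh11* read by its other probe set and at 1.5-fold. It became 6 without a fold threshold and 0 at 4-fold. Settings at 1.5-fold and with the other *Cdh11* probe set were chosen after seeing the data. *Cdh11* became -1.20 (limma adjusted p = 5.65e-06) with the mean of its probe sets, because the other one enters. *Cdh1* turned to -0.033 (adjusted p = 0.697) and *Vim* to -0.014 (adjusted p = 0.841) after a further quantile normalization, and *Cdh1* lay between -0.029 and 0.068 when single arrays were left out. The cause was not tested. Over all genes, 2548 calls became 1499 with limma's test against 2-fold, 11520 without a fold threshold, 5116 at 1.5-fold and 695 at 4-fold, and lay between 2483 and 2656 when single arrays were left out. Of the 174 other genes, 36 calls became 101 without a fold threshold and 21 at 4-fold. All 10 members stayed above background at the 90th percentile and 9 at the 99th. The labels number the replicates of both lines alike, but the correlations of deviations between arrays of the same number were 0.26, 0.04 and 0.25, and STOSE replicate 2 correlated best with M0505 replicate 3, so the numbers were not taken as pairs. With the replicate number as a block, 2549 genes, 36 of the other genes and 1 member were called. Under the block *Cdh2* (0.0268) and *Zeb2* (0.027) passed the adjusted p, both under 2-fold. Values for single genes under other settings were set against the whole rule for a call (adjusted p and 2-fold), not the adjusted p alone. Of these values, 713 kept their direction and their side of that rule, 2 came to pass it and 3 turned in sign. A further 14 fell under it, among them *Ptprm*, *Id1*, *Klf4*, *Krt7*, *Tagln*, *Cnn1* and *Mmp2* in limma's test against 2-fold.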
